A study of Arabidopsis thaliana with 5 samples.

Results

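Aquaporins are channel proteins of the major intrinsic protein family, and 35 Arabidopsis loci that encode them were followed in cotyledons of the ckg mutant and of wild-type Col-0. The members were chosen by locus, with earlier results of these data known. They were the plasma membrane intrinsic proteins (PIP, 13 loci) and the tonoplast intrinsic proteins (TIP, 10 loci). The other members were the NOD26-like intrinsic proteins (NIP, 9 loci) and the small basic intrinsic proteins (SIP, 3 loci). Names are written with a hyphen in place of the usual semicolon. All 35 loci had at least 1 probe, among 25433 loci with a probe on the array, and they held 80 probes. Genes entered the test if either genotype had all of its arrays well above background, which held for 27 of the 35 aquaporin genes and for 18122 genes in all.

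The study hybridised total RNA of cotyledons, the embryonic leaves, of 7-day-old seedlings grown in 16 h light and 8 h dark. Each sample was labelled with Cy3 on a 1-colour Agilent array, with 3 arrays of ckg and 2 arrays of Col-0, described in the series text as biological replicates. The labels give the genotype of the ckg samples as a "cgr mutant" and state neither the lesion, the number of alleles nor any rescued line. The line was taken, from outside knowledge, as a mutant of the bHLH gene AT5G50915, CYTOKININ-RESPONSIVE GROWTH REGULATOR, and Col-0 is the standard laboratory accession.

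Aquaporins let water and some small neutral solutes cross membranes along their gradients. In leaves, PIPs in the plasma membrane and TIPs in the vacuolar membrane set how easily water enters and leaves cells, and expanding cells enlarge by taking water into the vacuole. NIPs are better known for carrying metalloids such as boric acid and arsenite, and SIPs reside in the endoplasmic reticulum.

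The targeted gene AT5G50915 had processed signals of 6.46, 16.5 and 51.3 in ckg, against 1070 and 962 in Col-0. Its probe was well above background on 0 of 3 ckg arrays and on 2 of 2 Col-0 arrays, which puts it at least 29.6-fold lower in ckg (limma adjusted p = 0.101). Among 43803 spots per array, 4 arrays had 66.7% to 70.0% well above background, while ckg replicate 3 had 52.4%, whose lowest signal was also the highest of the arrays (31.0 against 2.68 to 4.01). Both Col-0 arrays lay on one slide and all 3 ckg arrays on another, so that genotype and slide cannot be told apart throughout. No gene passed an adjusted p of 0.05 in limma's moderated test (0% of 18122 genes, smallest adjusted p 0.0551), although 3293 genes had an unadjusted p under 0.05. The 6 mesophyll markers were well above background on all 5 arrays. These are photosynthesis genes, so they cannot tell cotyledons from other green tissue. All 4 shoot apex markers and both pollen markers were at background on every array. Of 8 root markers, 4 were at background on every array. The root markers SHV2 and CASP2 were well above background on 2 ckg arrays and 2 Col-0 arrays.

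Aquaporin transcripts were mostly somewhat less abundant in ckg, by less than 1 log2 unit, and none passed the adjusted threshold. Of the 27 tested genes, 21 had a lower mean in ckg and 6 a higher one, with a median log2 difference, ckg minus Col-0, of -0.19. In whole cotyledons, fewer cells of a type and less RNA per cell cannot be told apart. Over all genes tested the median was -0.0093, and 51.3% of genes were lower. At an unadjusted p under 0.05, 5 aquaporin genes were lower (SIP1-2, PIP2-1, TIP2-2, NIP7-1 and PIP1-1) and 3 were higher (NIP5-1, TIP3-1 and NIP1-1), where 9.79% of all genes were lower and 8.38% higher by the same rule. For 11 aquaporin genes all ckg values were below both Col-0 values, for 4 they were above both, and for 12 the groups overlapped. Over all genes the corresponding shares were 22.8% below and 19.5% above. The 13 brightest aquaporins (9 PIPs and 4 TIPs) were among the 1813 brightest tested genes, whose median difference was -0.0096, with 51.9% of genes lower. With 3 arrays against 2 there are 10 ways to split the arrays, and an exact two-sided permutation test on 1 gene can then give no p smaller than 0.1.

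**Figure D1:**
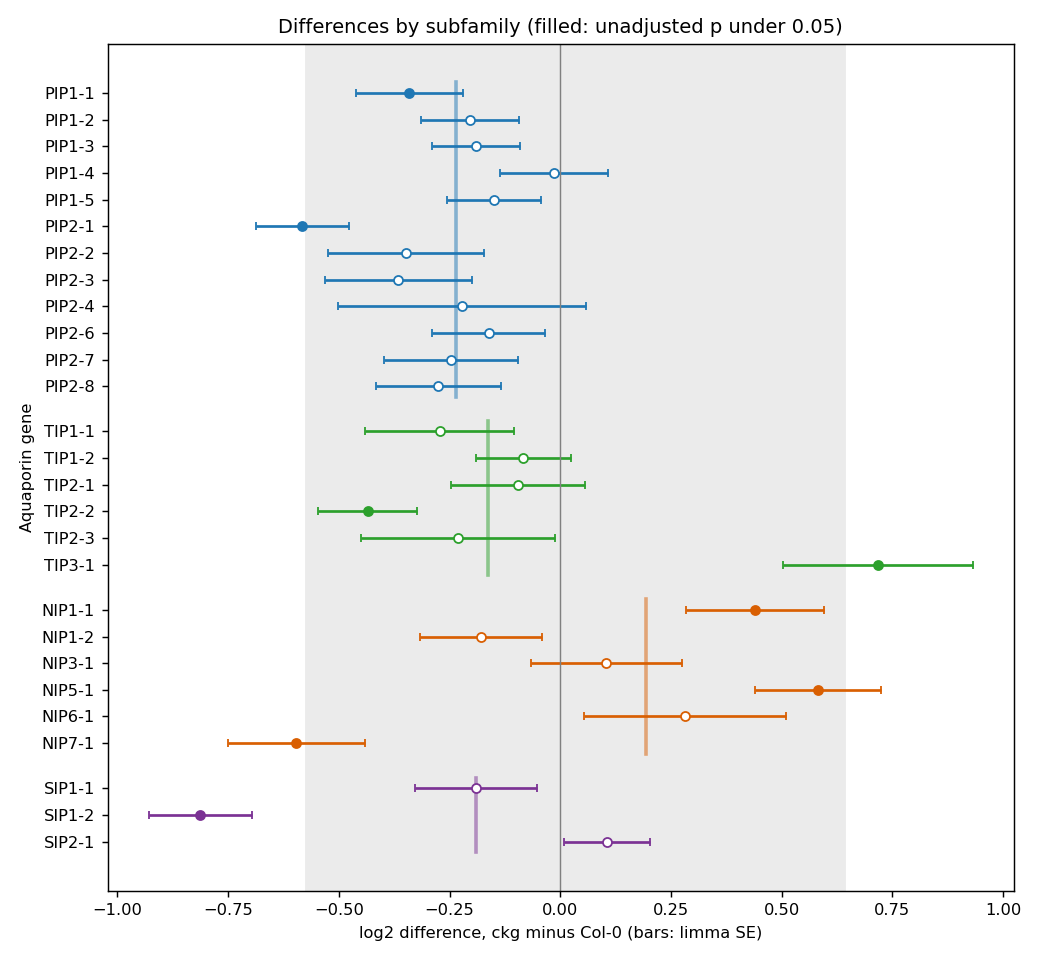
Log2 difference in signal (ckg minus Col-0, horizontal axis) for the 27 tested aquaporin genes, grouped by subfamily; bars are the SE of the limma fit and filled points have an unadjusted p under 0.05. The grey band spans the 5th to the 95th percentile of all 18122 genes tested (-0.57 to 0.64), short vertical lines are the subfamily medians, and all 12 PIP points lie to the left of 0.

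The plot of differences by subfamily shows the spread within each group. All 12 tested PIPs were lower in ckg (median -0.23), 5 of 6 TIPs were lower (median -0.16), 4 of 6 NIPs were higher (median 0.19) and 2 of 3 SIPs were lower (median -0.19). After each gene was centred on its mean over arrays, the PIP median was -0.050, -0.037 and -0.137 on the ckg arrays, against 0.076 and 0.166 on the Col-0 arrays, so the groups did not overlap. The TIP median was -0.110, -0.108 and 0.144 on the ckg arrays, against 0.183 and -0.0039 on the Col-0 arrays, and the SIP median was 0.056, -0.096 and -0.217 on the ckg arrays, against 0.204 and 0.025 on the Col-0 arrays. Both of these overlapped. The NIP median was 0.181, 0.174 and -0.126 on the ckg arrays, against -0.103 and -0.076 on the Col-0 arrays. For NIPs, therefore, ckg replicate 3 lay below both Col-0 arrays. Without ckg replicate 3, 10 of the 12 PIPs were lower in ckg, and the NIP median was 0.36. The sign of 2 medians depended on the processing or on the genes included. The NIP median was -0.10 with the deposited series table. The TIP median was 0.32 without the filter on dim probes, where the median of all genes was also higher, at 0.12. The tested TIPs kept their differences there, and 4 TIPs not well above background on any array were added.

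Probe brightness in Col-0 ranked TIP2-1 first, followed by TIP1-2, PIP2-6, PIP1-2, TIP1-1, PIP1-3, PIP2-1, PIP1-5, PIP1-1, PIP2-7, TIP2-2, PIP1-4 and PIP2-2. Brightness depends on the probe as well as on the transcript, so the order describes signals only. Signals are given below relative to each array, as multiples of that array's 75th percentile. Relative signals of these 13 genes in Col-0 ran from 13.3 for PIP2-2 to 108 for TIP2-1, and a NIP was first met at rank 17, with NIP6-1. The 5 dimmest tested genes (NIP7-1, NIP1-1, TIP3-1, TIP2-3 and NIP3-1) were well above background on both Col-0 arrays and on 2 of the 3 ckg arrays, ckg replicate 3 being the exception for each. The remaining 22 genes were measured on all 5 arrays.

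**Figure D2:**
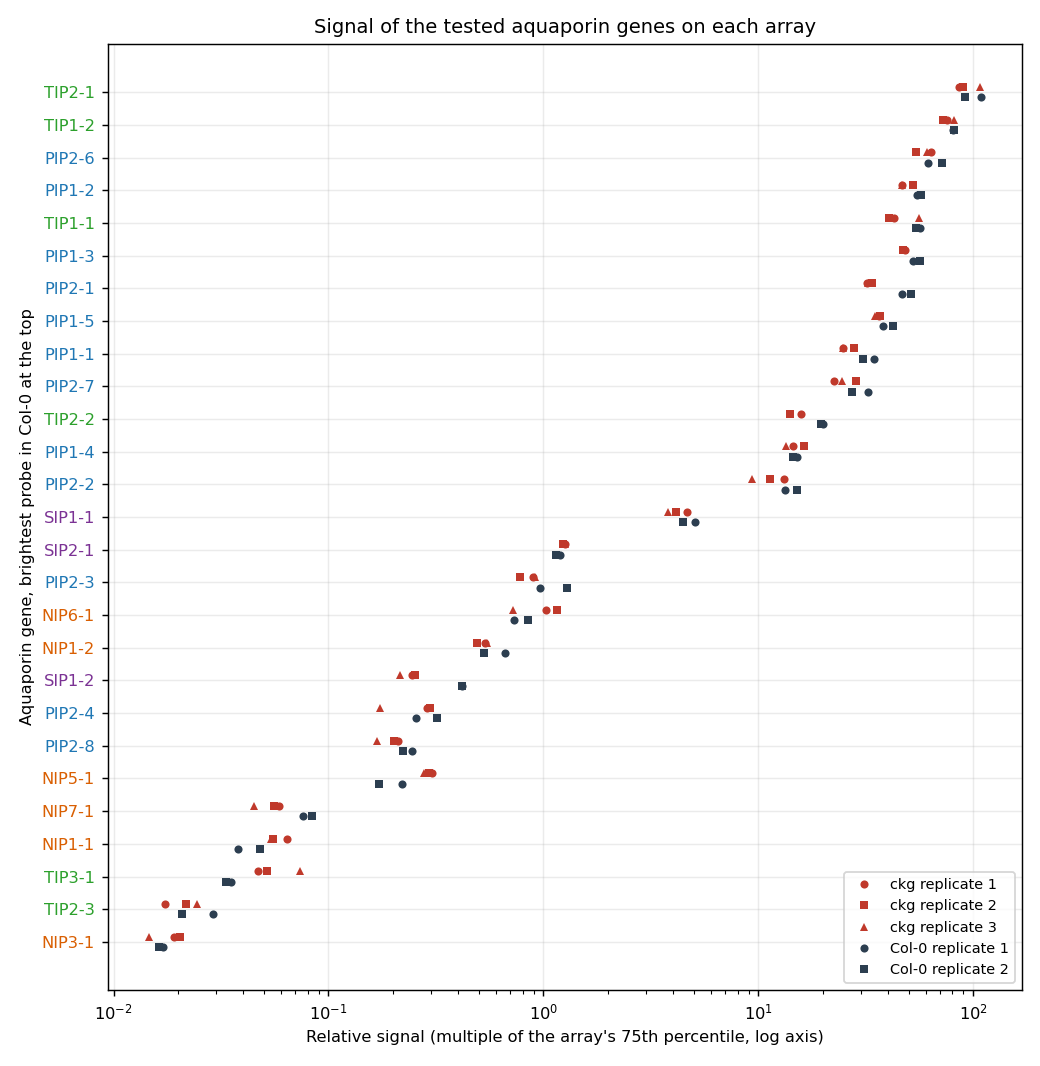
Relative signal (multiple of the array's 75th percentile, log axis) of the 27 tested aquaporin genes on each array, with ckg points in red above the Col-0 points of the same gene; label colours mark PIP (blue), TIP (green), NIP (orange) and SIP (purple). PIPs and TIPs hold the 13 brightest places and NIPs first appear at rank 17; most of the bright genes have their ckg points to the left of their Col-0 points.

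The PIP1 group comprises plasma membrane channels that, as shown in maize, reach the membrane together with PIP2 partners. All 5 PIP1 genes were tested and all 5 were lower in ckg, with a median of -0.19. PIP1-1 (AT3G61430) had relative signals of 24.6, 27.9 and 24.8 in ckg, against 34.5 and 30.8 in Col-0. All ckg arrays lay below both Col-0 arrays, and the gene was lower by 0.34 ± 0.12 on the log2 scale (limma, SE, adjusted p = 0.243). PIP1-1 was lower by 0.24 with the series table, 0.23 with a normexp background correction and 0.21 with probes averaged (limma unadjusted p = 0.105, 0.109 and 0.476). Without Col-0 replicate 1 it was lower by 0.26. PIP1-2 (AT2G45960), one of the most abundant plasma membrane aquaporins of Arabidopsis, had 46.8, 52.5 and 46.4 in ckg and 54.7 and 57.0 in Col-0. Here too the groups did not overlap, with a difference of -0.20 ± 0.11 (limma adjusted p = 0.385). PIP1-3 (AT1G01620) and PIP1-5 (AT4G23400) were lower by 0.19 and 0.15 without overlap (PIP1-5 by 0.074 without Col-0 replicate 2), whereas PIP1-4 (AT4G00430), with 14.4, 16.2 and 13.5 in ckg and 15.1 and 14.5 in Col-0, overlapped and differed by -0.014 (limma adjusted p = 0.963).

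PIP2 proteins are the plasma membrane channels with high water permeability of their own. Of 8 PIP2 genes, 7 were tested and all 7 were lower in ckg, with a median of -0.28. PIP2-1 (AT3G53420), a water channel of leaf and root cells whose gating and trafficking depend on phosphorylation, had the largest PIP difference in the main analysis, though not with the series table or normexp. Its relative signals were 32.2, 33.8 and 32.2 in ckg and 46.7 and 51.4 in Col-0. The 3 ckg arrays lay close together and well below Col-0, and the gene was lower by 0.58 ± 0.10 on the log2 scale, or 0.668-fold (limma, SE, adjusted p = 0.121). The processed signal of the probe was 0.939, 0.967 and 0.994 times its median pixel signal on the ckg arrays, 1.05 times on Col-0 replicate 1 and 1.52 times on Col-0 replicate 2. The difference was -0.18 with the deposited series table and -0.20 with a normexp background correction (limma adjusted p = 0.553 and 0.489), against -0.50 and -0.47 for PIP2-2. With the series table, 3 other PIP2-1 probes gave -0.67, -0.39 and -0.79 and another 2 gave 0.41 and 0.22. The part of the scanner software's correction was not tested.

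PIP2-2 (AT2G37170) and PIP2-3 (AT2G37180) are neighbours on chromosome 2 in the RefSeq gene order and encode closely related channels. Whether a probe of one also reports the other was not tested. PIP2-3, first described as the desiccation-responsive gene RD28, had 0.896, 0.780 and 0.919 in ckg and 0.964 and 1.28 in Col-0. PIP2-2, a contributor to water uptake in roots, had 13.1, 11.3 and 9.34 in ckg and 13.3 and 15.2 in Col-0. The groups did not overlap for either gene, but ckg replicate 1 came close to Col-0 replicate 1 for PIP2-2. The difference was -0.37 ± 0.17 for PIP2-3 and -0.35 ± 0.18 for PIP2-2 (limma adjusted p = 0.319 and 0.357). PIP2-3 ranged from -0.57 without Col-0 replicate 1 to -0.16 without Col-0 replicate 2, and PIP2-2 was -0.22 without ckg replicate 3. PIP2-6 (AT2G39010), the brightest PIP, had 63.3, 54.4 and 61.0 in ckg and 61.9 and 71.5 in Col-0, which overlap (difference -0.16 ± 0.13, limma adjusted p = 0.533). PIP2-8 (AT2G16850) was lower by 0.28 without overlap, while PIP2-7 (AT4G35100) and PIP2-4 (AT5G60660), lower by 0.25 and 0.22, overlapped. Every ckg array was below both Col-0 arrays for 8 of the 12 PIPs, where 22.8% of all genes were. PIP2-7 was lower by only 0.038 with the series table, 0.032 with normexp and 0.12 without Col-0 replicate 1, and PIP2-6 by 0.055 with the series table, 0.068 with normexp and 0.057 without Col-0 replicate 2.

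TIPs conduct water across the vacuolar membrane, and several also conduct ammonia or urea. TIP2-2 (AT4G17340) had relative signals of 15.9, 14.04 and 13.97 in ckg, against 19.98 and 19.5 in Col-0. It was the single TIP with every ckg array below both Col-0 arrays, and was lower by 0.44 ± 0.11 on the log2 scale, or 0.740-fold (limma, SE, adjusted p = 0.169). The 3 brightest TIPs showed smaller differences. TIP2-1 (AT3G16240), the delta-TIP of vegetative vacuoles, had 85.6, 89.2 and 106.98 in ckg and 108 and 91.8 in Col-0. TIP1-2 (AT3G26520) had 75.3, 72.5 and 81.7 in ckg and 80.7 and 81.3 in Col-0. TIP1-1 (AT2G36830), the gamma-TIP associated with elongating cells, had 42.7, 40.6 and 55.7 in ckg and 56.4 and 54.4 in Col-0. In each of the 3 genes ckg replicate 3 was the highest ckg array and overlapped Col-0, whereas the other ckg arrays were below both Col-0 arrays. The difference was -0.095 ± 0.15 for TIP2-1, -0.084 ± 0.11 for TIP1-2 and -0.27 ± 0.17 for TIP1-1 (limma adjusted p = 0.763, 0.703 and 0.437).

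The other tested TIPs had dim probes. TIP3-1 (AT1G73190), a channel of protein storage vacuoles in seeds, had relative signals of 0.0469, 0.0520 and 0.0735 in ckg, against 0.0352 and 0.0334 in Col-0. Every ckg array lay above both Col-0 arrays, and the difference was 0.72 ± 0.21, or 1.64-fold (limma, SE, adjusted p = 0.201). The highest value came from ckg replicate 3, where the probe was not well above background, and without that array the difference was 0.53. Markers of seeds and embryos were measured beside it: none of 10 passed the detection rule for testing, and 6 were at background on every array. Their summed processed signal, not scaled to the array, was 207, 165 and 470 in ckg against 94 and 175 in Col-0. Of the 10 markers, 2, 1 and 0 were well above background on the ckg arrays, and 0 and 3 on the Col-0 arrays. The array with the highest sum, ckg replicate 3, was thus the ckg array with 0. GEA6 (AT2G40170), a late embryogenesis gene picked after its values were seen, had unscaled signals of 87.4, 73.0 and 51.9 in ckg against 25.4 and 38.6 in Col-0. It was well above background on 2 ckg arrays and 1 Col-0 array. The markers CRU3 (AT4G28520) and OLEO2 (AT5G40420) went the other way, each well above background on 1 Col-0 array and on 0 ckg arrays. ABI3 (AT3G24650) was so on 1 ckg array and 0 Col-0 arrays. The part of seed transcripts in the TIP3-1 value was not tested. TIP2-3 (AT5G47450), which with TIP2-1 has been linked to ammonia transport, had 0.0173, 0.0218 and 0.0245 in ckg and 0.0291 and 0.0208 in Col-0. These values overlap, with a difference of -0.23 ± 0.22 (limma adjusted p = 0.602).

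The NIPs held differences in both directions. NIP5-1 (AT4G10380), the boric acid channel that serves boron uptake in roots, had relative signals of 0.303, 0.295 and 0.279 in ckg, against 0.221 and 0.173 in Col-0. All ckg arrays lay above both Col-0 arrays, and the difference was 0.58 ± 0.14, or 1.497-fold (limma, SE, adjusted p = 0.162). NIP6-1 (AT1G80760), a boric acid channel of nodes and young shoots, had 1.03, 1.16 and 0.724 in ckg and 0.726 and 0.844 in Col-0. For NIP6-1, ckg replicates 1 and 2 were above Col-0 and ckg replicate 3 was just below, leaving a difference of 0.28 ± 0.23 (limma adjusted p = 0.540) that was 0.14 without ckg replicate 2 and 0.48 without ckg replicate 3. The boron exporter BOR1 (AT2G47160), which works alongside NIP5-1, had 1.31, 1.51 and 2.20 in ckg and 1.35 and 1.29 in Col-0, with overlapping groups (difference 0.31 ± 0.24, limma adjusted p = 0.520). Its relative AT3G62270 differed by -0.050, and BOR4 (AT1G15460) was not tested.

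NIP7-1 (AT3G06100), a boric acid channel known from anthers, was the NIP that was lower at an unadjusted p under 0.05. Its relative signals were 0.0588, 0.0558 and 0.0450 in ckg, against 0.0761 and 0.0839 in Col-0. The groups did not overlap, and the gene was lower by 0.60 ± 0.15 on the log2 scale (limma, SE, adjusted p = 0.170). The lowest value came from ckg replicate 3, where the probe was not well above background, and without that array the difference was -0.48. NIP7-1 entered the test through Col-0, where it was higher. When detection on all 5 arrays was required, 4 of 22 tested aquaporins were lower at an unadjusted p under 0.05, where 10.1% of all genes were. NIP1-1 (AT4G19030), a channel that passes arsenite and antimonite, had 0.0643, 0.0554 and 0.0538 in ckg, against 0.0378 and 0.0478 in Col-0. It was higher on every ckg array by 0.44 ± 0.16, or 1.36-fold (limma, SE, adjusted p = 0.243), but the difference was -0.0014 with the deposited series table. NIP1-2 (AT4G18910), linked to the uptake of aluminium as malate complex, had 0.535, 0.492 and 0.547 in ckg and 0.662 and 0.531 in Col-0, which overlap (difference -0.18 ± 0.14, limma adjusted p = 0.521). Leaving out Col-0 replicate 1 gave NIP1-2 a difference of -0.021, and leaving out Col-0 replicate 2 gave -0.34. NIP3-1 (AT1G31885) differed by 0.10 with overlapping groups.

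SIP1-2 (AT5G18290), a water channel of the endoplasmic reticulum, had the smallest p of the family. Its relative signals were 0.246, 0.253 and 0.216 in ckg, against 0.418 and 0.418 in Col-0. The 2 Col-0 arrays gave the same value and every ckg array was below it by a wide margin, with the gene lower by 0.81 ± 0.12 on the log2 scale, or 0.569-fold (limma, SE, adjusted p = 0.100). The processed signal was 1.26, 1.24 and 1.03 times the median pixel signal in ckg, and 1.27 and 1.48 times in Col-0. Before scaling, those median signals were 474, 531 and 465 in ckg and 826 and 596 in Col-0. With the series table the difference was -0.67. SIP1-2 was represented by 1 probe, and its difference lay between -0.86 and -0.63 in all 13 alternative analyses. Not all of these could move it. A change of filter or averaging of probes leaves such a gene at its main value, and the replicate block gave the same difference as leaving out ckg replicate 3. SIP1-1 (AT3G04090), its closest relative in the family and also a water channel, had 4.67, 4.12 and 3.79 in ckg and 5.07 and 4.48 in Col-0, with overlap (difference -0.19 ± 0.14, limma adjusted p = 0.495, and -0.10 without Col-0 replicate 1). SIP2-1 (AT3G56950), the third endoplasmic reticulum member, had 1.27, 1.24 and 1.26 in ckg and 1.19 and 1.14 in Col-0. The SIP2-1 arrays did not overlap, but the difference was only 0.11 ± 0.097 (limma adjusted p = 0.590).

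**Figure D3:**
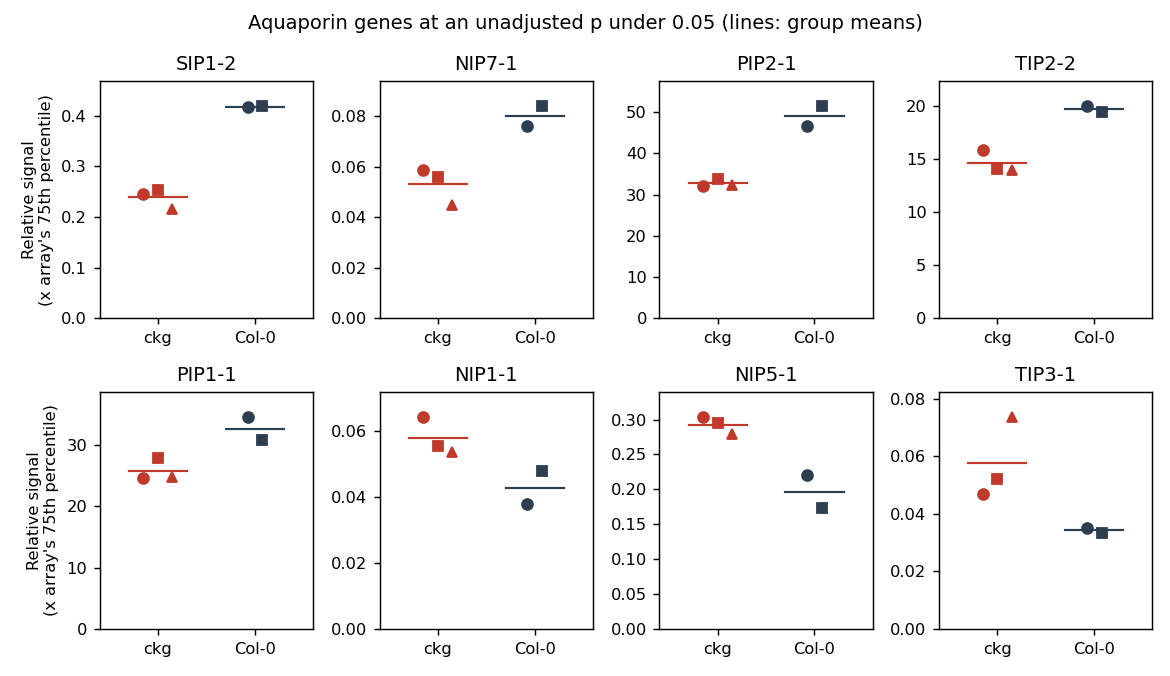
Relative signal (multiple of the array's 75th percentile, linear axis from 0) on each array for the 8 aquaporin genes with an unadjusted p under 0.05, ckg at the left and Col-0 at the right of each panel, with lines at the group means. In each of the 8 panels the ckg and Col-0 points are separate; SIP1-2, NIP7-1, PIP2-1, TIP2-2 and PIP1-1 are lower in ckg, and NIP1-1, NIP5-1 and TIP3-1 are higher.

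Another 8 members were not tested. PIP2-5 (AT3G54820), TIP1-3 (AT4G01470), TIP3-2 (AT1G17810), TIP4-1 (AT2G25810), TIP5-1 (AT3G47440), NIP2-1 (AT2G34390) and NIP4-1 (AT5G37810) were not well above background on any array. NIP4-2 (AT5G37820), the chromosome 5 neighbour of NIP4-1, was well above background on 1 Col-0 array and on no ckg array. Several of these genes are known from other organs: TIP1-3, TIP5-1, NIP4-1 and NIP4-2 from pollen, TIP3-2 from seeds, and TIP4-1 and NIP2-1 from roots. No member was well above background on all arrays of one genotype and on none of the other.

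Of the 80 aquaporin probes, 70 were tested, and 56 of these were lower in ckg, where 53.5% of all 28789 tested probes were lower. At an unadjusted p under 0.05, 15 aquaporin probes were lower and 3 were higher, against 8.55% and 7.45% of all tested probes. The smallest adjusted p of an aquaporin probe was 0.142 in limma. Probes of 1 gene share their transcript and are not replicates of a genotype. In the main analysis, all tested probes were lower for PIP1-1 (3), PIP1-3 (4), PIP1-5 (2), PIP2-6 (5) and PIP2-7 (5). The same held for TIP1-1 (4), TIP2-1 (5), TIP2-2 (4) and SIP1-1 (2). The 4 TIP2-2 probes gave differences between -0.76 and -0.44, so the brightest probe, on which the gene value rests, gave the smallest. With the series table, a PIP1-1 probe gave 0.23 and PIP2-7 probes gave 0.056 and 0.0985, while the other tested probes of both genes stayed lower.

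Probes disagreed in other genes. For PIP1-4, 4 of 5 probes were higher in ckg, with differences between -0.014 and 0.52, and the brightest was the only lower one. PIP1-2 had 5 lower probes and 1 higher, and TIP1-2 had 3 lower and 2 higher. For PIP2-1, 4 probes measured on all arrays were lower, between -0.63 and -0.38. Another, at -0.66, had a value on 1 Col-0 array only and was 0.22 with the series table, and 1 was higher by 0.34. That last probe had relative signals of 31.3, 35.04 and 33.8 in ckg, against 45.7 and 15.3 in Col-0, so its sign came from Col-0 replicate 2 alone. The ratio of processed to median pixel signal was over 1.3 times the probe's own median ratio for 9 of the 70 probes on Col-0 replicate 2, up to 1.87 times, and for 0 probes on the other 4 arrays. Of these 9 probes, 1 was used for its gene, that of PIP2-1. The part of the software's correction in the probe differences was not tested. The series table, which ranks spots by their uncorrected median signal, gave 56 of 70 probes lower. Of 40 PIP probes 32 were then lower, against 34 in the main analysis, and of 6 NIP probes 4, against 2. The TIP and SIP counts were unchanged. The share of all probes lower with the series table was not computed, and its median over all genes was -0.039.

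**Figure D4:**
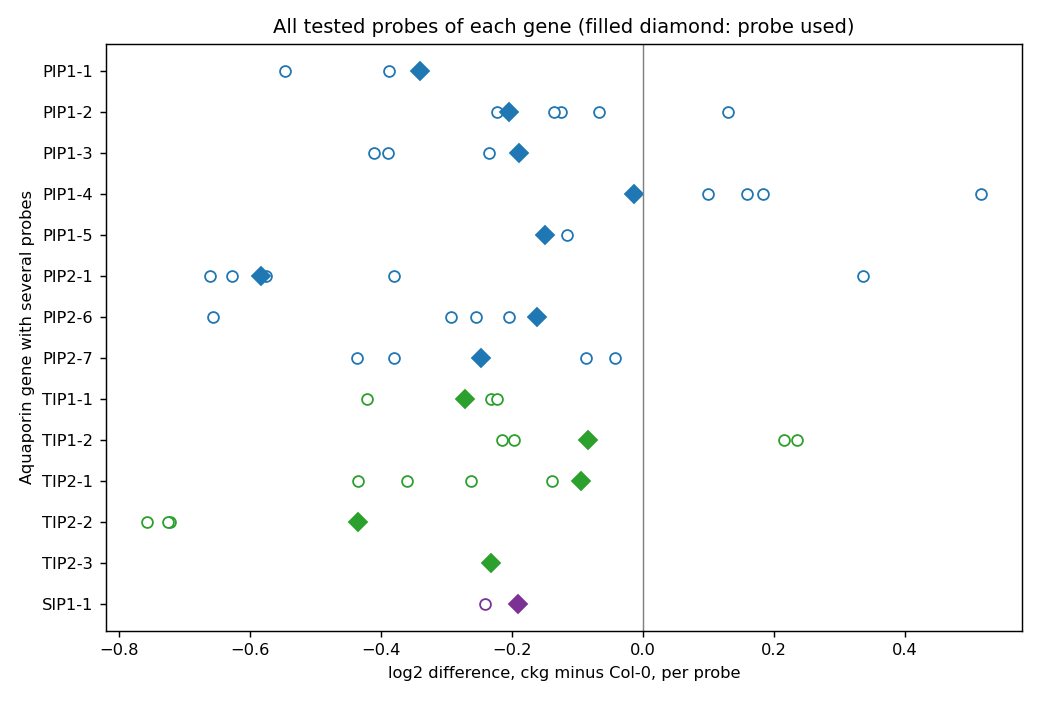
Log2 difference (ckg minus Col-0, horizontal axis) of every tested probe for the 14 aquaporin genes with several probes; filled diamonds mark the brightest probe, used for the gene value, and open circles the others. The 4 TIP2-2 probes all lie between -0.76 and -0.44, while PIP1-4, PIP1-2, TIP1-2 and PIP2-1 have probes on both sides of 0.

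The lists of genes that work with aquaporins had medians near 0. Proton pumps energise the plasma membrane and the vacuole, and all 16 on the list were tested: 12 were lower in ckg, 4 were higher, and the median was -0.067. At an unadjusted p under 0.05, 1 of the 16 pumps was lower, where 9.79% of all genes were. That pump, VHA-A (AT1G78900), the catalytic subunit of the vacuolar ATPase, had relative signals of 9.59, 10.9 and 10.5 in ckg, against 13.0 and 12.7 in Col-0. It was lower by 0.32 ± 0.11 (limma, SE, adjusted p = 0.233). The ATPase subunit genes VAB3 (AT1G20260) and TUF (AT4G11150) were also lower on every ckg array, by 0.48 and 0.25 (limma adjusted p = 0.299 and 0.338). Every ckg array was below both Col-0 arrays for 4 of the 16 pumps and above both for 2, where 22.8% and 19.5% of all genes were. The 2 higher pumps were AVP1 (AT1G15690) and AT3G58730, by 0.076 and 0.073. Among 8 regulators and trafficking partners of PIPs, 4 were lower and 4 higher, none at an unadjusted p under 0.05, with a median of 0.015. TSPO (AT2G47770), which targets PIP2-7 for degradation, differed by 0.65 ± 0.33 with overlapping groups (limma adjusted p = 0.357). Its probe was dim, with unscaled signals of 83.7, 89.9 and 40.4 in ckg and 39.0 and 42.7 in Col-0, and was well above background on only 2 of the 3 ckg arrays. RMA1 (AT4G03510), a ubiquitin ligase of the endoplasmic reticulum, differed by -0.40. The receptor kinase gene AT5G10020 differed by 0.26, also with overlap.

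Marker genes of cell types were measured beside the aquaporins. The 6 mesophyll markers had a median difference of -0.17, with 4 lower and 2 higher and none at an unadjusted p under 0.05. Their summed processed signal, not scaled to the array, was 1543196, 1606939 and 1651323 in ckg, against 1819765 and 1485526 in Col-0. Unscaled sums also carry the brightness of each array. The 75th percentile of all non-control spots was 2463, 2613 and 2220 on the ckg arrays, and 2514 and 2136 on the Col-0 arrays. All 5 vascular markers were tested and 4 were lower in ckg, with a median of -0.30. XCP1 (AT4G35350), a xylem protease, had relative signals of 1.15, 1.15 and 0.828 in ckg, against 1.48 and 1.81 in Col-0, a difference of -0.66 ± 0.20 (limma adjusted p = 0.201). The summed vascular signal, also unscaled, was 64642, 69510 and 39956 in ckg, against 66749 and 61181 in Col-0, with ckg replicate 3 the lowest array. Of 8 root markers, 2 were tested, SHV2 (AT5G49270) and CASP2 (AT3G11550), and 4 were at background on every array. SHV2 and CASP2 were higher by 0.29 and 0.25 with overlapping groups (limma adjusted p = 0.439 and 0.518). Neither was well above background on ckg replicate 3. The part of these cell types in the aquaporin differences was not tested.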

How the data were processed

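Per the file headers, the authors scanned 1-colour Agilent arrays and extracted spot intensities with Feature Extraction 10.7.1.1, which subtracts background and corrects spatial trends to give the processed signal. The deposited series table holds log2 values that rank each array exactly as its median spot intensity does (Spearman correlation 1), with a median of 8.41 on every array. How these were normalized is not stated in the labels or files used here.

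Outlier spots were left out and spots of a probe were averaged. The log2 of the processed signal minus the array's 75th percentile was used. Of 43603 non-control probes, 34358 were matched by accession to a locus of RefSeq's TAIR10.1 table and 9245 were not. Headers name the build ath1:Jan2004, so no coordinates are given. The brightest probe represented each gene. Limma 3.58.1 in R 4.3.3 compared genotypes (two-sided, Benjamini-Hochberg over 18122 genes, 3 residual degrees of freedom), and was tested on simulated data. The array number limits the precision.

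Members and lists were chosen with earlier results of these data known. Values per array are given for genes at an unadjusted p under 0.05, the 5 brightest, up to 2 more per subfamily and up to 3 per other list. Equally numbered arrays did not deviate together (correlations -0.0903 and -0.102). Alternatives changed the background correction, scaling, filter, probe choice, values, replicate block or arrays used. The scanner files hold no mean signal, so normexp (offset 50) used medians. Columns of no sample numbered 0.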

Additional observations from a re-analysis of the deposited data

How the results depend on the processing

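None of the 13 alternatives put an aquaporin past an adjusted p of 0.05, and 21 of the 27 tested genes kept their sign in all of them. At an unadjusted p under 0.05, leaving out 1 array gave between 2 genes (without Col-0 replicate 2) and 5 genes lower in ckg, against 5 with all arrays. Over all genes the share lower was 9.79% with all arrays, 4.25% without Col-0 replicate 2 and 12.0% without ckg replicate 3. The count of higher genes was 3 of 27, where 8.38% of all genes were higher. It was 1 of 27 with normexp and with the series table, where 9.42% and 7.47% of all genes were higher. With a filter on all 5 arrays it was 1 of 22, where 9.28% of all genes were. Without ckg replicate 1, 2 or 3 it was 2, 2 and 4, where 8.03%, 6.6% and 10.8% of all genes were. The PIP median of -0.234 ran from -0.299 to -0.167 with 1 array left out, the TIP median of -0.163 from -0.267 to -0.0383 (without Col-0 replicate 1) and the SIP median of -0.19 from -0.28 to -0.101 (without Col-0 replicate 1). Without a filter on dim probes, the TIP median was 0.317 and the NIP median 0.44, while the median of all genes moved to 0.125. The tested TIPs and NIPs kept their differences there, and the 4 TIPs and 3 NIPs that had failed the detection rule were added. The NIP median was -0.103 with the series table, 0.362 with the replicate block, and 0.0755 to 0.362 with 1 array left out. Of 12 tested PIPs, 11 were lower with normexp, without Col-0 replicate 1 and with probes averaged, and 10 under the replicate block and without ckg replicate 3, a count added after seeing the data. PIP1-4 was 0.0367 with normexp, 0.189 with probes averaged, 0.0474 under the replicate block and -0.0871 to 0.0474 with 1 array left out. PIP2-4 was 0.0293 with the replicate block and -0.391 to 0.0293 with 1 array left out. TIP2-1 ran from -0.215 to 0.0251 and TIP2-3 from -0.474 to 0.0122 with 1 array left out, and TIP2-3 was 0.517 with probes averaged. NIP1-1 was -0.00136 with the series table, and NIP3-1 was -0.0497 with normexp, -0.88 with quantile scaling and -0.204 with the series table. The cause of these shifts was not tested. The replicate block gives ckg replicate 3, which has no numbered partner, no weight, so its differences equal those without that array. A change of filter leaves the difference of each gene still tested as it was, and averaging probes does so for genes with 1 probe. A sign kept in those alternatives was therefore fixed in advance. Where 1 Col-0 array is left out, the lone array is assumed to vary like ckg. Over all genes, 3 passed the adjusted threshold with normexp, with the series table and without ckg replicate 3, and 1 without Col-0 replicate 2. Signal over background limits the 5 dimmest genes, which ckg replicate 3 did not measure.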
